A study of Homo sapiens with 4 samples.

Results

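The 48 genes described here encode the folding and quality-control machinery of the endoplasmic reticulum (ER): sensors of the unfolded protein response (UPR), chaperones of the lumen, enzymes of disulfide formation, components of ER-associated degradation (ERAD) and subunits of the translocon. They were chosen by name, with earlier results of these data known, so the shares of them called below are descriptive. Every probe set listed for exactly 1 of these symbols was read. Of the 48, 45 had such a probe set, and all 45 passed the filter on dim signals. SYVN1, PDIA5 and SEC61G had none and were not analysed by themselves. The members made up 45 of 13554 genes tested. Their 121 probe sets were part of 54675 on the array, and where a gene had several, the brightest stood for it.

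The study compared gene expression in U937, an established human cell line of monocytic character derived from a lymphoma, after shikonin, a naphthoquinone pigment of plant roots, or after its solvent dimethyl sulfoxide (DMSO). The DMSO group held 2 arrays, and the incubation time of these control cells is not stated in the labels. The shikonin group held 2 arrays of cells exposed to 100 nM for 3 h. All 4 samples were the same line with no genetic change given, and whether replicates were grown as separate cultures is not stated, so the p-values reflect how far these samples scatter, which may be technical. In a bulk RNA sample, fewer cells expressing a gene and less RNA per cell cannot be told apart.

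The ER lumen folds secreted and membrane proteins. When unfolded proteins accumulate, the HSP70 chaperone HSPA5 dissociates from membrane sensors, among them ERN1 (IRE1), which splices the XBP1 mRNA, and ATF6, which moves to the Golgi and is cut there by the proteases MBTPS1 and MBTPS2 to release a transcription factor. Both arms raise transcription of chaperone and ERAD genes through short promoter elements, and ERAD returns misfolded proteins to the cytosol for destruction by the proteasome. The remaining arm, the kinase EIF2AK3 (PERK), slows translation and acts through ATF4.

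Signals were deposited intensities on a linear scale, with the same trimmed mean of 500.1 on all 4 arrays, so a difference stands against the other probe sets of the array. Array medians lay between 60.5 and 63.7, and 3' to 5' ratios, a sign of RNA integrity, were 1.14 to 1.19 (ACTB) and 1.05 to 1.13 (GAPDH). Of 10 monocytic and myeloid markers, 8 had a single-symbol probe set, and all 8 lay above the 40th percentile of signal on every array, among them LYZ and ITGB2. The mean signals of these 8 ran from 69.3 for MPO to 14729. MPO was thus dimmer than some markers of other lineages, such as the B cell marker PAX5 (301 and 314 in DMSO). Of the 8, 1 (PTPRC) was lower after shikonin. The summed signal of the 8 ranged from 39604 to 41693 in DMSO and from 37035 to 38763 after shikonin. None of 4 measured T cell markers lay above the 40th percentile on all arrays. B cell, erythroid, epithelial, fibroblast and plasma cell markers had 2 of 4, 2 of 3, 1 of 4, 2 of 4 and 1 of 4 above it on all arrays, with mean signals of at most 332, and none of these was called. The median absolute log2 difference of the members was 0.07 to 0.08 between arrays of a group and 0.20 to 0.24 between arrays of different groups. Over all 32768 tested probe sets it was 0.16 within groups and 0.24 to 0.25 between them. The members' differences between groups were thus no larger than those over all probe sets. Their replicate arrays differed less, so relative to replicate scatter the members' groups lay further apart. The members were also brighter, with a median signal of 3419 against 581 over all genes tested. Probe sets of like brightness were not compared, so the smaller scatter cannot be credited to the members as such.

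Differences are given as log2(signal + 9.94) in shikonin minus DMSO, and a gene was called higher or lower where limma's moderated test gave an adjusted p below 0.05. After shikonin, 13 of the 45 members (28.9%) rose and 2 (4.44%) fell, and 30 did not pass. Over all 13554 genes tested, 5.05% were called higher and 6.65% lower. The median difference of the members was 0.11, against 0.00 over all genes, with 34 members above 0 and 11 below. The members were mostly bright, and 29 of them lay in the 25% of genes with the highest mean signal, where 10.7% of genes were called higher and 8.91% lower and the median was 0.05. Of these 29 members, 9 rose (31%) and 2 fell (6.9%). The rises were small, from 1.16-fold to 1.65-fold. All 15 calls rest on limma's trended variance prior, in which the expected scatter follows the signal. With a single variance prior for all genes, limma called 0 members, and its smallest adjusted p was 0.0764. With 2 arrays a group an exact permutation test of a single gene cannot give a two-sided p under 0.333. A gene whose groups do not overlap reaches only this value, so lack of overlap is weak evidence by itself. With 1 array left out, 7 or 8 members were called higher in place of 13: 8 without DMSO 1, 7 without DMSO 2, 7 without shikonin 1 and 8 without shikonin 2.

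**Figure D1:**
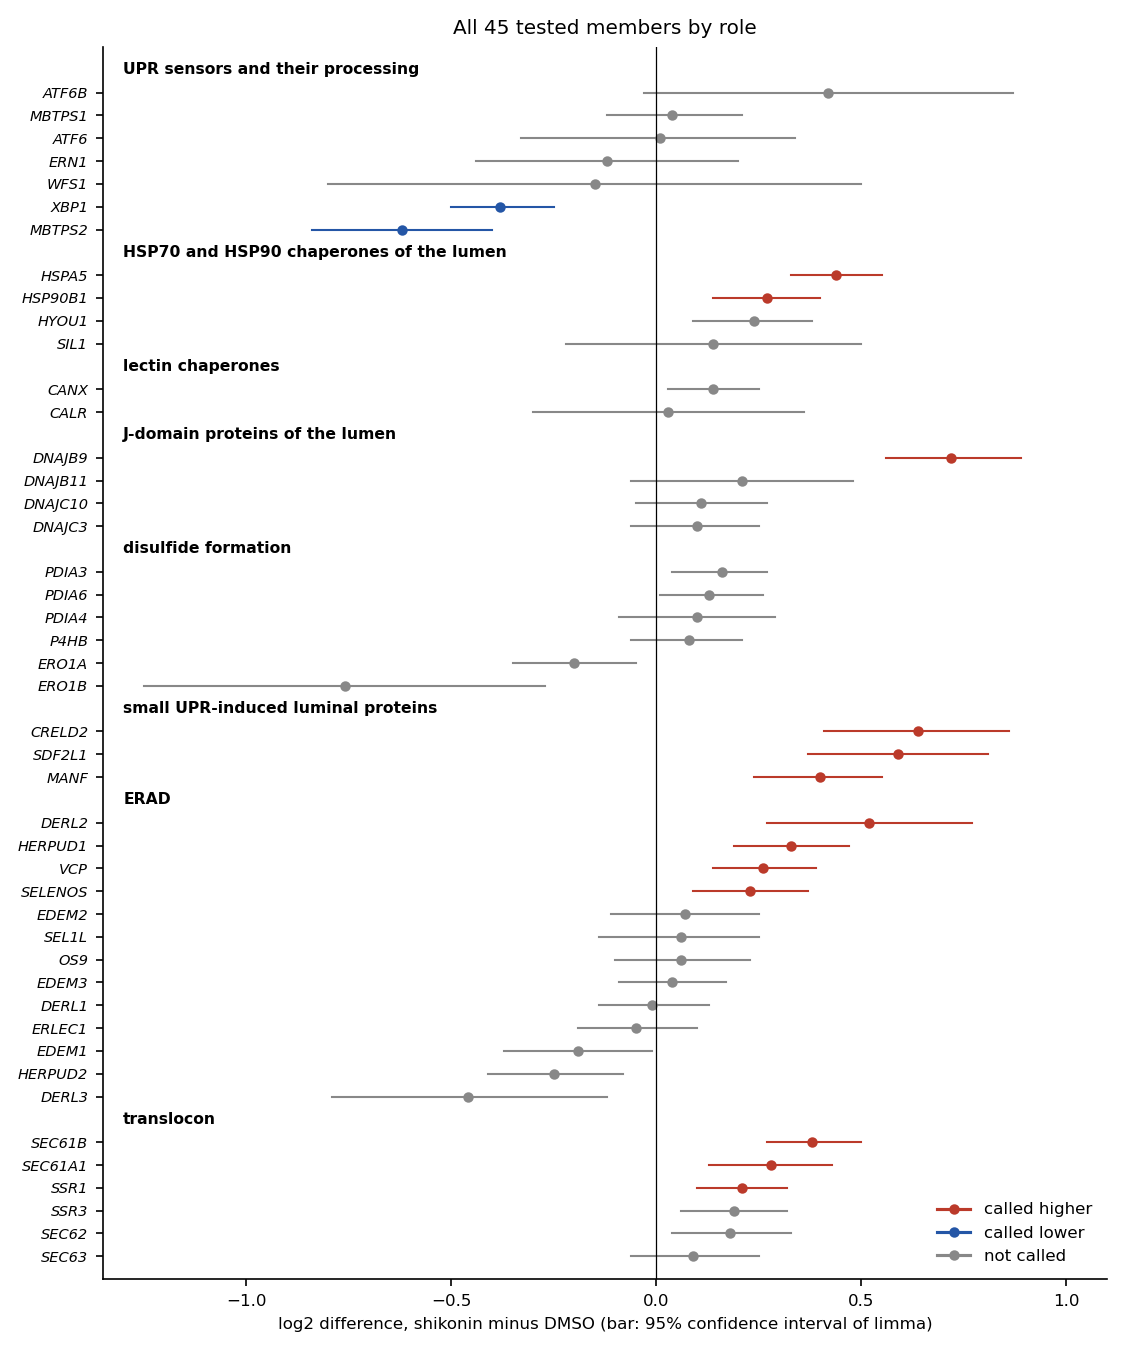
Log2 difference (shikonin minus DMSO) of all 45 tested members, grouped by role, 1 gene a line. Points are limma estimates from 2 arrays a group and bars are 95% confidence intervals; red points rose, blue points fell and grey points were not called. CRELD2, SDF2L1 and MANF all lie above 0, while the sensors spread from -0.62 for MBTPS2 to 0.42 for ATF6B.

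Of the members' individual probe sets, 116 of 121 were bright enough to test, and 19 were called higher and 3 lower. On the whole array, 3.92% of the 32768 probe sets tested rose and 5.28% fell. Among the 15 called members, 11 had more than 1 tested probe set. In 5 of them (HSPA5, DNAJB9, VCP, SEC61A1 and SSR1) another probe set was called in the same direction, and in 8 all other probe sets had the same sign. XBP1, SEC61B and SSR1 had a probe set of opposite sign.

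**Figure D2:**
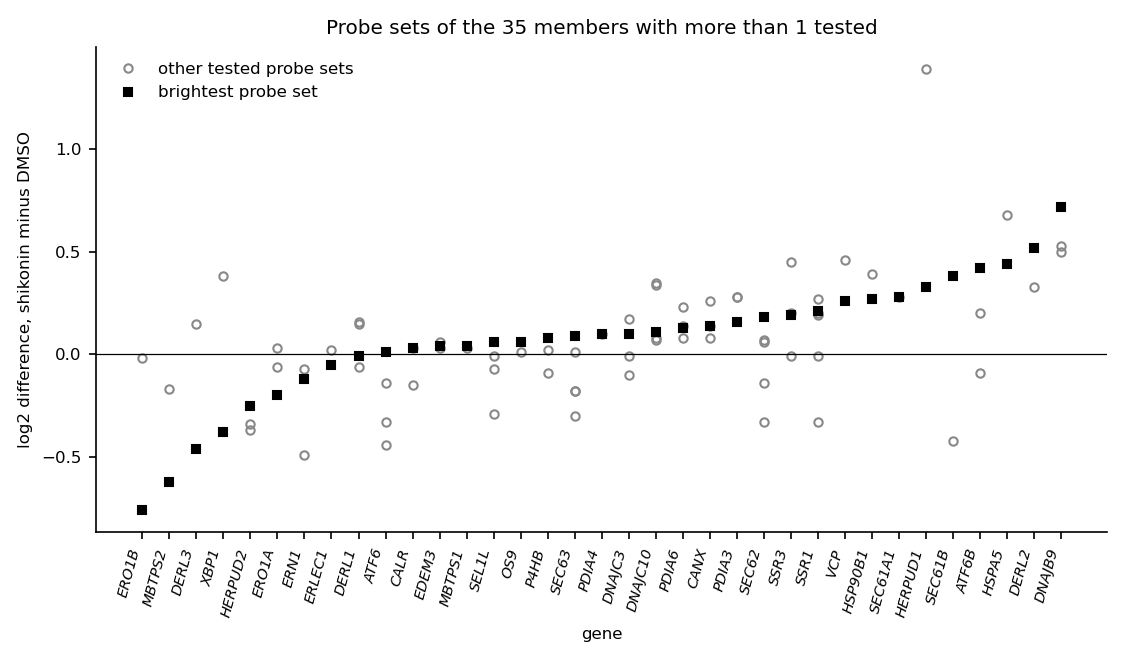
Log2 difference (shikonin minus DMSO) of every tested probe set of the 35 members with more than 1. Black squares are the brightest probe set, which stands for the gene, and open circles are the others. The single probe set that lies far above the rest is the dim other one of HERPUD1 at 1.39.

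Promoter windows of 250 bases before to 50 bases after each annotated start, from RefSeq on GRCh38.p14, were available for 45 of the 48 members (54 windows), and PDIA3, DERL1 and DERL3 had none. They were searched on both strands for the letters of the ER stress response element (ERSE), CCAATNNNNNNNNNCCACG, and of its variant ERSE-II, ATTGGNCCACG, elements through which ATF6 and XBP1 act. ERSE letters were found in 8 members, in 10 of 54 windows (18.5%), against 27 of 35116 windows overall (0.0769%). These windows count a single CANX match from 3 of its starts. ERSE-II letters were found in 3 members, against 19 windows overall (0.0541%). Together, 11 members held either element, and 34 members with a window held neither. The matches are shown here with the fixed letters in capitals and written in the orientation of the element. A match is a description of letters, not a measured binding site. The members were chosen for their roles in ER folding and the UPR, so the shares of windows describe them and were not tested.
HSPA5, chr9:125241391-125241409, minus strand: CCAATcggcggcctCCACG
HSP90B1, chr12:103930216-103930234, plus strand: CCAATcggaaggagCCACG
HSP90B1, chr12:103930321-103930339, minus strand: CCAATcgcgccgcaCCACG
CRELD2, chr22:49918554-49918572, minus strand: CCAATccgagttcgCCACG
XBP1, chr22:28800603-28800621, minus strand: CCAATcgcggagggCCACG
PDIA6, chr2:10812853-10812871, minus strand: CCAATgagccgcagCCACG
CANX, chr5:179698778-179698796, plus strand: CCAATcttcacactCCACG
CALR, chr19:12938384-12938402, minus strand: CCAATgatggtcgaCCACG
ERO1B, chr1:236282183-236282201, plus strand: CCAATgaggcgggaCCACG
HERPUD1 (ERSE-II), chr16:56932025-56932035, plus strand: ATTGGgCCACG
SDF2L1 (ERSE-II), chr22:21642114-21642124, minus strand: ATTGGtCCACG
HYOU1 (ERSE-II, the nearer of a pair), chr11:119057274-119057284, plus strand: ATTGGaCCACG

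The members with these letters did not move as one. Of the 11 with ERSE or ERSE-II, HSPA5, HSP90B1, CRELD2, HERPUD1 and SDF2L1 rose, XBP1 fell, and PDIA6, CANX, CALR, ERO1B and HYOU1 were not called; their median difference was 0.24. Of the 31 tested members with a window and neither element, 8 rose and 1 fell, with a median of 0.10. Among 20 tested genes outside the members that carried either element, 1 rose (RUVBL2, 0.22) and 2 fell (NAV2, -0.67, and EIF2A, -0.27), with a median of 0.08. For comparison, 10868 tested genes had a window and neither element, members included. Of these, 579 rose and 747 fell, with a median of 0.00. Over all genes tested, 5.05% rose and 6.65% fell. The lengths of promoter searched are short, and elements further away were not read. Only exact letters were searched, so members counted as having neither element may hold copies with a changed base.

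**Figure D3:**
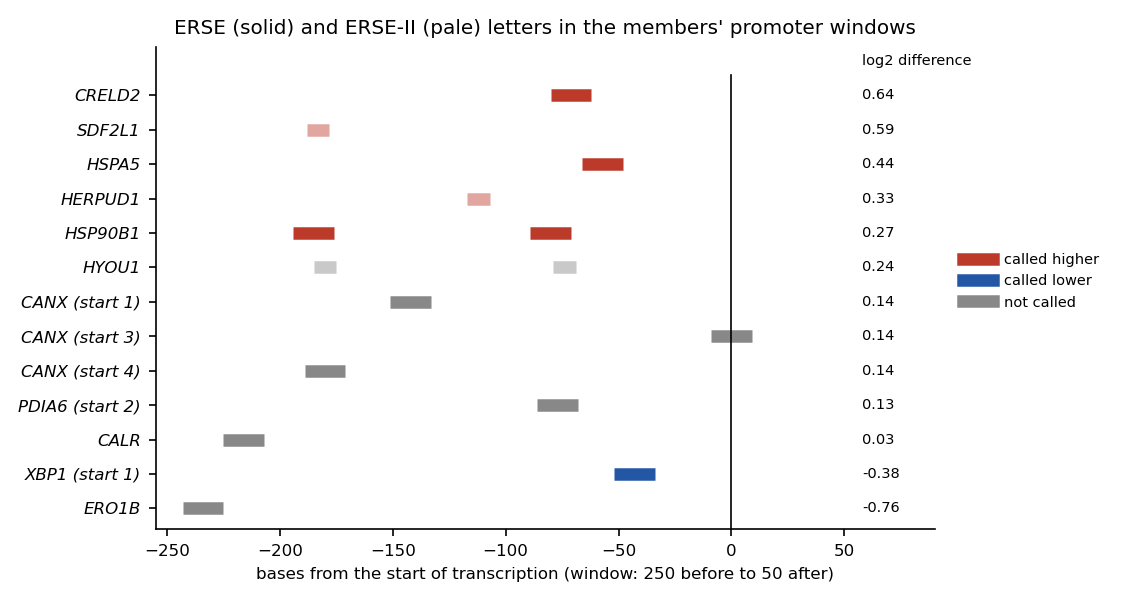
Position of ERSE (solid bars) and ERSE-II (pale bars) letters in the members' promoter windows, in bases from the annotated start of transcription (vertical line), with each gene's log2 difference (shikonin minus DMSO) at the right. Colour gives the call: red rose, blue fell, grey not called. The 3 CANX lines are the same genomic match seen from 3 of its starts, and HSP90B1 and HYOU1 each have 2 matches.

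The UPR element letters TGACGTGG stood in the windows of 5 members (DNAJC10, SSR3, SEC62, VCP and HYOU1), of which VCP rose, and in 0.729% of all windows. In HYOU1 the match overlapped the ERSE-II match that lies further from the start. The core of the antioxidant response element, TGACNNNGC, stood in 10 members (22.2%) and in 13.3% of all windows, and in DNAJC10, SSR3 and VCP it overlapped the UPR element letters. A heat shock element of alternating TTC and GAA units with 2 bases between them was found in 0 of 45 members and in 0.49% of all windows.

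Of the 7 UPR sensors and their processing enzymes, 2 fell and none rose. XBP1, the transcription factor activated by IRE1, had signals of 6188 and 6207 in DMSO and 4754 and 4793 after shikonin. The groups were well apart, and the probe set fell 1.30-fold (log2 difference -0.38, SE 0.0545, adjusted p = 0.00374). The other XBP1 probe set was dim, with signals of 47.2 and 27.6 in DMSO and 35.2 and 70.7 after shikonin. It overlapped between groups and had the opposite sign (0.38, adjusted p = 0.696). Averaging both probe sets gave XBP1 a difference of 0.00, so the fall rests on the brighter one. Neither value tells spliced from unspliced XBP1 mRNA. The 250 bases before the annotated XBP1 start that lies nearest to its ERSE match (GRCh38.p14, chr22:28800570-28800819, minus strand) are shown because XBP1 was the member with ERSE letters that fell; capitals mark the ERSE match.
XBP1: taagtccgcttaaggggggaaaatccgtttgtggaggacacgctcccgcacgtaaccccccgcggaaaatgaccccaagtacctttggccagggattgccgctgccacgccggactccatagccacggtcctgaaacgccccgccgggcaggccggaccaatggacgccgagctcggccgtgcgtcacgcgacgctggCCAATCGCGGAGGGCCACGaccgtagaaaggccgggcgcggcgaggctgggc

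MBTPS2, the site-2 protease that cuts ATF6 within the membrane, had signals of 2382 and 2743 in DMSO and 1787 and 1536 after shikonin. Both shikonin arrays were below both DMSO arrays, and the gene fell 1.54-fold (-0.62, SE 0.097, adjusted p = 0.00507). Its other tested probe set was at -0.17 and not called, and a probe set listed for YY2 and MBTPS2 together was at 0.53 (adjusted p = 0.175). MBTPS1, the site-1 protease that cuts ATF6 before it, was at 0.04 with overlapping arrays.

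The sensors themselves were not called. ATF6 had signals of 444 and 398 in DMSO and 376 and 473 after shikonin, a difference of 0.01 (95% interval -0.33 to 0.34) with overlapping arrays. Its 3 other, dimmer probe sets were at -0.14, -0.44 and -0.33. In each of them the shikonin arrays lay below the DMSO arrays, but none was called, so no direction is given for ATF6. ERN1 had 415 and 372 in DMSO and 392 and 332 after shikonin, a difference of -0.12 (-0.44 to 0.20) with overlapping arrays. Its other probe sets were at -0.07, with overlap, and at -0.49, without overlap, and neither was called. ATF6B, the paralogue of ATF6, had 201 and 152 against 224 and 251, a difference of 0.42 that did not pass (adjusted p = 0.235). WFS1, an ER membrane protein that restrains ATF6, was dim (98.2 and 90.5 against 74.8 and 94.2) and was at -0.15. The intervals of ATF6B and WFS1 are wide enough to hold a change of over 1.5-fold.

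Of the 4 HSP70 and HSP90 chaperones of the lumen and their exchange factors, 2 rose and all 4 had values above 0. HSPA5 (BiP), the HSP70 of the ER lumen, had signals of 13034 and 12662 in DMSO and 17669 and 17264 after shikonin. The groups did not overlap, and HSPA5 rose 1.36-fold (0.44, SE 0.0486, adjusted p = 0.000886), a call kept with each array left out in turn (adjusted p at most 0.00632). Its other probe set rose too (0.68, adjusted p = 0.0205). The 250 bases before its start (GRCh38.p14, chr9:125241344-125241593, minus strand) are shown because HSPA5 is the chaperone by which ER stress is usually read; capitals mark the ERSE match.
HSPA5: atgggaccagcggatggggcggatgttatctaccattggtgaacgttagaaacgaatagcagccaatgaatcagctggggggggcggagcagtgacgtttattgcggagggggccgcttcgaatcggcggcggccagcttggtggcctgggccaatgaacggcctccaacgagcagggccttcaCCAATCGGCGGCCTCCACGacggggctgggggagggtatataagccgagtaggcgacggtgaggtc

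HSP90B1, the HSP90 of the lumen, had signals of 3548 and 3458 in DMSO and 4276 and 4180 after shikonin on the probe set listed for it alone. It rose 1.21-fold (0.27, SE 0.0593, adjusted p = 0.0235), but with any 1 of the 4 arrays left out the call was lost (DMSO 1, 0.0542; DMSO 2, 0.0875; shikonin 1, 0.11; shikonin 2, 0.0727). That probe set is of a type that may bind related transcripts, and a dimmer HSP90B1 probe set was at 0.39 (adjusted p = 0.17). HYOU1, an exchange factor of HSPA5 and a chaperone itself, had 2907 and 2788 against 3278 and 3431, without overlap, and just missed the threshold (0.24, SE 0.0645, adjusted p = 0.0536). SIL1, the other exchange factor, was at 0.14 with overlapping arrays.

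The lectin chaperones, which hold glycoproteins during folding, gave 0 calls of 2. CANX, the membrane lectin, had 11080 and 11358 in DMSO and 12308 and 12400 after shikonin, which did not overlap (0.14, adjusted p = 0.117). CALR, its soluble counterpart, was at 0.03, and its DMSO arrays of 3546 and 5243 lay further apart than the shikonin arrays of 4214 and 4577. Its difference was -0.01 after quantile normalization, so no direction is given.

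Of the 4 J-domain proteins, which bring substrates to HSPA5, 1 rose. DNAJB9, which passes ERAD substrates to HSPA5 and binds the lumenal side of IRE1, had signals of 1317 and 1266 in DMSO and 2117 and 2155 after shikonin. Its replicate arrays nearly coincided, and it had the largest rise of the 15 called members at 1.65-fold (0.72, SE 0.0731, adjusted p = 0.000567). Its other 2 probe sets were at 0.50 and 0.53, and 1 of them was called. DNAJB11, a co-chaperone of HSPA5 for folding, was at 0.21 with overlap; without DMSO 1 it was at 0.42 and called (adjusted p = 0.0155), and without DMSO 2 it was at -0.01. DNAJC3, an inhibitor of the kinases of translation arrest, was at 0.10, and DNAJC10, a disulfide reductase that serves ERAD, was at 0.11.

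None of the 6 tested genes of disulfide formation was called. The isomerases PDIA3, PDIA6, PDIA4 and P4HB were at 0.16, 0.13, 0.10 and 0.08, and P4HB turned to -0.03 after quantile normalization. The shikonin arrays of PDIA3 and PDIA6 lay above their DMSO arrays, and 1 dimmer PDIA6 probe set was called higher (0.23, adjusted p = 0.0354). The oxidases that feed them were not called. ERO1A had 3794 and 3925 in DMSO and 3495 and 3215 after shikonin (-0.20, adjusted p = 0.0942), and its other probe sets were at 0.03 and -0.06. ERO1B had 263 and 195 against 135 and 124 (-0.76, SE 0.217, adjusted p = 0.0607), without overlap but with a wide interval of -1.25 to -0.27. Its other probe set, with 195 and 125 against 141 and 168, overlapped between groups and was at -0.02, so no direction is given for ERO1B. PDIA5 shares its probe set with MIR7110, which was at 0.01.

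All 3 small luminal proteins, each known for induction by ER stress, rose. CRELD2 had signals of 1176 and 1338 in DMSO and 1813 and 2110 after shikonin, and rose 1.55-fold (0.64, SE 0.0988, adjusted p = 0.00497). SDF2L1, a luminal partner of J-domain proteins, had 712 and 804 against 1107 and 1177, and rose 1.50-fold (0.59, SE 0.0976, adjusted p = 0.00695). MANF, a secreted and luminal factor, had 3189 and 3569 against 4427 and 4466, and rose 1.32-fold (0.40, SE 0.0695, adjusted p = 0.00898). In each gene both shikonin arrays lay above both DMSO arrays, and each call was kept with every array left out in turn. Each had 1 tested probe set, so no other probe set could be set beside it.

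**Figure D4:**
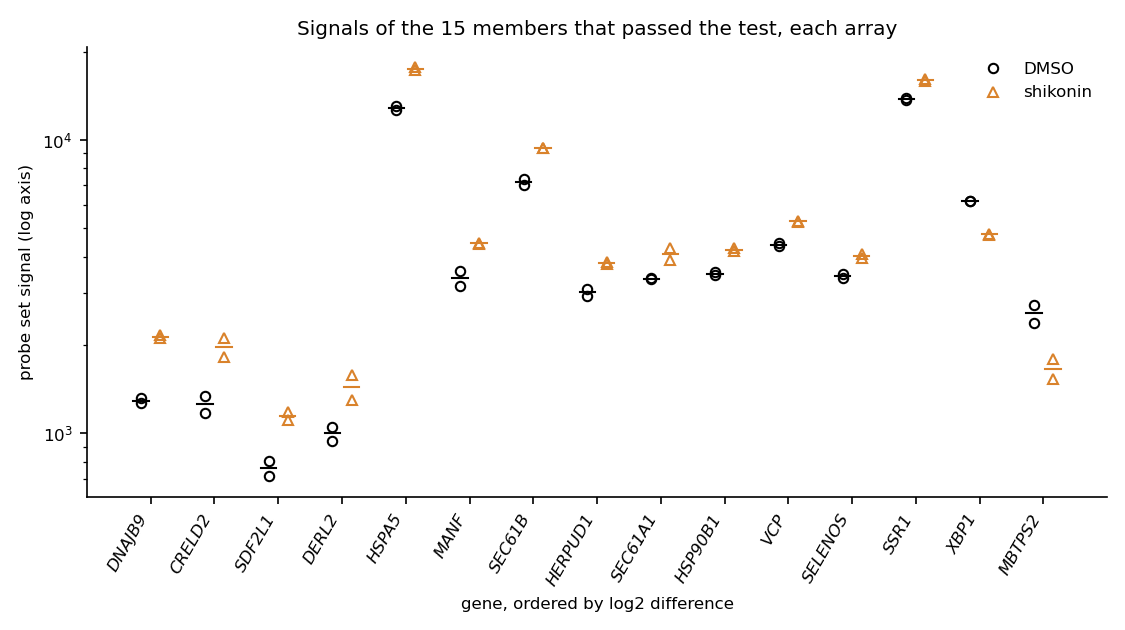
Probe set signal on a log axis for the 15 members that passed the test, ordered by log2 difference, with 2 DMSO arrays (black circles) and 2 shikonin arrays (orange triangles) for each gene and bars at the group means. The genes run from DNAJB9, the largest rise at 1.65-fold, to MBTPS2, which fell 1.54-fold. In none of the 15 do the groups overlap, but these genes were picked by the test on the same arrays, so this adds no support.

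Of the 13 tested ERAD genes, 4 rose and none fell, and the median was 0.06. DERL2, a derlin of the retrotranslocation channel, had signals of 1053 and 943 in DMSO and 1584 and 1297 after shikonin, and rose 1.43-fold (0.52, SE 0.11, adjusted p = 0.0206); the call was lost without DMSO 2 (0.0711) or shikonin 1 (0.0947), and with the mean of its probe sets (0.42, adjusted p = 0.0537). HERPUD1, an ER membrane protein that gathers the ubiquitin ligase complex, had 2945 and 3106 against 3837 and 3787, and rose 1.26-fold (0.33, SE 0.0625, adjusted p = 0.0123); the call was lost without DMSO 1 (0.054) or shikonin 1 (0.0566). Its dim other probe set, at 31.9 and 8.55 against 69.8 and 56.6, was at 1.39 and not called. The groups of both HERPUD1 probe sets were apart, in the same direction.

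VCP, the ATPase that pulls substrates from the membrane, had 4343 and 4436 in DMSO and 5296 and 5250 after shikonin, and rose 1.20-fold (0.26, SE 0.0562, adjusted p = 0.0209). Its other probe set rose as well (0.46, adjusted p = 0.00669). SELENOS, a selenoprotein that recruits VCP to the ER, had 3391 and 3480 against 4095 and 3966, and rose 1.17-fold (0.23, SE 0.0602, adjusted p = 0.0463). Neither gene had overlapping groups, yet with 3 arrays neither call passed: VCP was at 0.0768 without DMSO 1, 0.0511 without DMSO 2, 0.0951 without shikonin 1 and 0.0793 without shikonin 2. For SELENOS these adjusted p were 0.151, 0.097, 0.194 and 0.112.

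The other ERAD genes were not called. The lectins that read the trimmed glycans, OS9 and ERLEC1, were at 0.06 and -0.05, and SEL1L, the scaffold of the ligase, was at 0.06. The mannosidase-like EDEM1, EDEM2 and EDEM3 were at -0.19, 0.07 and 0.04, the last of them at -0.03 after quantile normalization. DERL1 was at -0.01, and DERL3 had 358 and 333 in DMSO against 240 and 257 after shikonin (-0.46, adjusted p = 0.0897). HERPUD2, the homologue of HERPUD1, had 2080 and 1994 against 1736 and 1697 (-0.25, adjusted p = 0.0645), and a dimmer HERPUD2 probe set was called lower (-0.37, adjusted p = 0.0194). SYVN1, the ubiquitin ligase of the complex, shares its probe set with MIR6751, which was at 0.15 and not called. The other tested DERL3 probe set was at 0.15 with overlapping arrays, so no direction is given for DERL3. EDEM1 and HERPUD2 had shikonin arrays below their DMSO arrays, opposite to DERL2 and HERPUD1, but neither was called.

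Of the 6 tested translocon genes, 3 rose, and all 6 had values above 0 on their brightest probe sets, though not on every other probe set. SEC61B, a small subunit of the channel, had signals of 7047 and 7331 in DMSO and 9366 and 9403 after shikonin, and rose 1.31-fold (0.38, SE 0.0526, adjusted p = 0.00281). A call was made with each array left out in turn. Its other probe set was dim and had the opposite sign, with 85.5 and 88.7 in DMSO and 56.2 and 69.1 after shikonin (-0.42, adjusted p = 0.468). Its groups did not overlap either, and the mean of both probe sets was -0.02, so the rise of SEC61B rests on the brighter one.

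SEC61A1, the pore of the channel, had 3387 and 3345 against 3898 and 4269, and rose 1.21-fold (0.28, SE 0.0663, adjusted p = 0.0331). A dimmer SEC61A1 probe set was called with the same difference of 0.28 (adjusted p = 0.0489). The SEC61A1 call was lost without DMSO 1 (0.0778), DMSO 2 (0.097) or shikonin 2 (0.184). SSR1, a subunit of the translocon-associated protein complex, had 13867 and 13706 against 15854 and 16078, and rose 1.16-fold (0.21, SE 0.0474, adjusted p = 0.0256). For SSR1 the call was lost without any 1 array (DMSO 1, 0.0647; DMSO 2, 0.0854; shikonin 1, 0.107; shikonin 2, 0.139) and after quantile normalization (0.11, adjusted p = 0.0995), and its 5 other probe sets ranged from -0.33 to 0.27. With the mean of its probe sets SSR1 was at 0.09 (adjusted p = 0.353), and without _x_at and _s_at probe sets, which can bind several transcripts, at -0.01 (adjusted p = 0.97). SSR3 of the same complex was at 0.19 (adjusted p = 0.0782), and SEC62 and SEC63, which assist post-translational entry, were at 0.18 and 0.09. Other probe sets ranged from -0.33 to 0.07 for SEC62 and from -0.30 to 0.01 for SEC63, so no direction is given for either.

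Among the 30 members that were not called, 11 had an unadjusted p below 0.05, 6 above 0 and 5 below. For 26 of the 30, the whole 95% interval lay within a 1.5-fold change in either direction, and for the other 4 it reached past that size.

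Other genes of the same pathways, from lists chosen by function, were set beside the members. These lists too were chosen with earlier results of these data known, and their shares were not tested. Of 31 genes of translocation and signal peptide cleavage, 11 rose (35.5%) and 1 fell, with a median of 0.14; 27 of them were in the brightest 25% of genes. SSR2, a further subunit beside SSR1 and SSR3, rose from 9163 and 9091 to 10767 and 11300 (0.27, adjusted p = 0.0132). GET3 (0.34), which targets tail-anchored proteins such as SEC61B, and TMCO1 (0.27), a calcium channel found with the translocon, rose too, while CAMLG, the membrane receptor of GET3, fell from 2693 and 2845 to 1987 and 2045 (-0.46, adjusted p = 0.00431). With 1 array left out, 3 of the 31 were called higher without DMSO 1, 4 without DMSO 2, 4 without shikonin 1 and 2 without shikonin 2. The SSR2 call was lost without shikonin 2 (0.0915), that of GET3 without DMSO 1 (0.053) or shikonin 2 (0.0697), and that of TMCO1 without DMSO 1 (0.0504) or shikonin 2 (0.0897). Of the 31, 6 were called higher without _x_at and _s_at probe sets, where TMCO1 was not (0.27, adjusted p = 0.116), and 7 with the mean of each gene's probe sets.

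The remaining folding genes were mostly not called. Of 25 tested, 1 rose (UGGT1, the glycoprotein folding sensor, 0.29, adjusted p = 0.0386), with a median of 0.03, and the UGGT1 call was lost with any 1 array left out (adjusted p from 0.0799 to 0.137) and with the mean of its probe sets (0.10, adjusted p = 0.517). Of 25 further ERAD genes, 3 rose (12%) and 4 fell (16%). NGLY1, the cytosolic enzyme that strips glycans from ERAD substrates, fell from 5398 and 5665 to 4178 and 3843 on its brightest probe set (-0.46, adjusted p = 0.00307). That fall rests on an _s_at probe set: NGLY1 was at -0.08 with the mean of its probe sets (adjusted p = 0.659) and at 0.30 without _x_at and _s_at probe sets (adjusted p = 0.398). RNF139, an ER ubiquitin ligase, fell by 0.38 on the log2 scale, and FAM8A1, a partner of SYVN1, fell by 0.53. ERLIN2 was the other gene that fell (-0.33), and UFD1 (0.23) and UBXN8 (0.29) rose. BAG6, a chaperone of exposed membrane segments, rose by 0.21 (adjusted p = 0.0445), a call lost with any 1 array left out (0.0944 to 0.164). BAG6 was at 0.04 with the mean of its probe sets (adjusted p = 0.863) and turned to -0.38 without _x_at and _s_at probe sets (adjusted p = 0.733). With those probe sets left out, 0 genes of this list were called higher and 2 lower. Without DMSO 1, DMSO 2 or shikonin 2, none of these 25 was called higher, and without shikonin 1, 1 was.

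Of 13 genes in a list for the PERK arm, 5 fell (38.5%) and 1 rose, with a median of -0.24. The list also held ERN2, an IRE1 gene that is not of the PERK arm and was not called. TRIB3, a pseudokinase induced through ATF4, had 9443 and 10129 in DMSO and 4118 and 3704 after shikonin (-1.32, adjusted p = 1.09e-05). DDIT4, an inhibitor of mTOR signalling, went from 3242 and 4380 to 2270 and 2014 (-0.81, adjusted p = 0.00484). PPP1R15B, a regulatory subunit of the eIF2-alpha phosphatase, fell by 0.46, and ATF3, a transcription factor downstream of ATF4, fell from 292 and 316 to 148 and 192 on its brightest probe set (-0.81, adjusted p = 0.0281). With the mean of its probe sets ATF3 was at -0.13 (adjusted p = 0.801), and without _x_at and _s_at probe sets at -0.11 (adjusted p = 0.851). PPP1R15A, the stress-induced counterpart of PPP1R15B, fell as well (-0.38), and EIF2S1, which encodes eIF2-alpha, was the gene that rose (0.24). ATF4 itself was at -0.11 (9140 and 9266 against 8702 and 8339, adjusted p = 0.235), DDIT3 at 0.33 (200 and 239 against 280 and 276, adjusted p = 0.269) and the sensor EIF2AK3 at 0.38 (481 and 524 against 635 and 678, adjusted p = 0.0665). The groups of ATF4, DDIT3 and EIF2AK3 did not overlap, but none of the 3 was called. After quantile normalization ATF4 was called lower (-0.20, adjusted p = 0.0327). The ATF3 call was lost without DMSO 1 (0.0679), DMSO 2 (0.108) or shikonin 1 (0.105), and 3 genes of the arm were called lower without DMSO 1, DMSO 2 or shikonin 1 and 5 without shikonin 2, while none was called higher with any 1 array left out. Without _x_at and _s_at probe sets, 3 were called lower and 0 higher.

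A further list of 15 tested genes held regulators of IRE1, relatives of CREB3 and the transcription factors NFYA, NFYB, NFYC, YY1 and GTF2I. Of these 15, 1 rose and 1 fell. MAP3K5 (ASK1), a kinase downstream of IRE1, fell from 1386 and 1269 to 902 and 963 (-0.50, adjusted p = 0.00942), but was at -0.18 without _x_at and _s_at probe sets (adjusted p = 0.344). CREBZF, a bZIP protein, rose from 877 and 767 to 1182 and 1079 (0.46, adjusted p = 0.0245), a call lost without DMSO 2 (0.102) or shikonin 1 (0.108). Its rise rests on an _s_at probe set: CREBZF was at 0.07 with the mean of its probe sets (adjusted p = 0.745) and at 0.08 without _x_at and _s_at probe sets (adjusted p = 0.763). Of 19 genes of ER retrieval and vesicle export, 1 rose, SEC23B of the COPII coat (0.29, adjusted p = 0.0285), which was lost without DMSO 1 (0.118), shikonin 1 (0.0957) or shikonin 2 (0.102). SEC23B was at 0.10 with the mean of its probe sets (adjusted p = 0.418) and turned to -0.04 without _x_at and _s_at probe sets (adjusted p = 0.896). The shares called higher, 6.67% and 5.26%, were near the 5.05% over all genes.

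**Figure D5:**
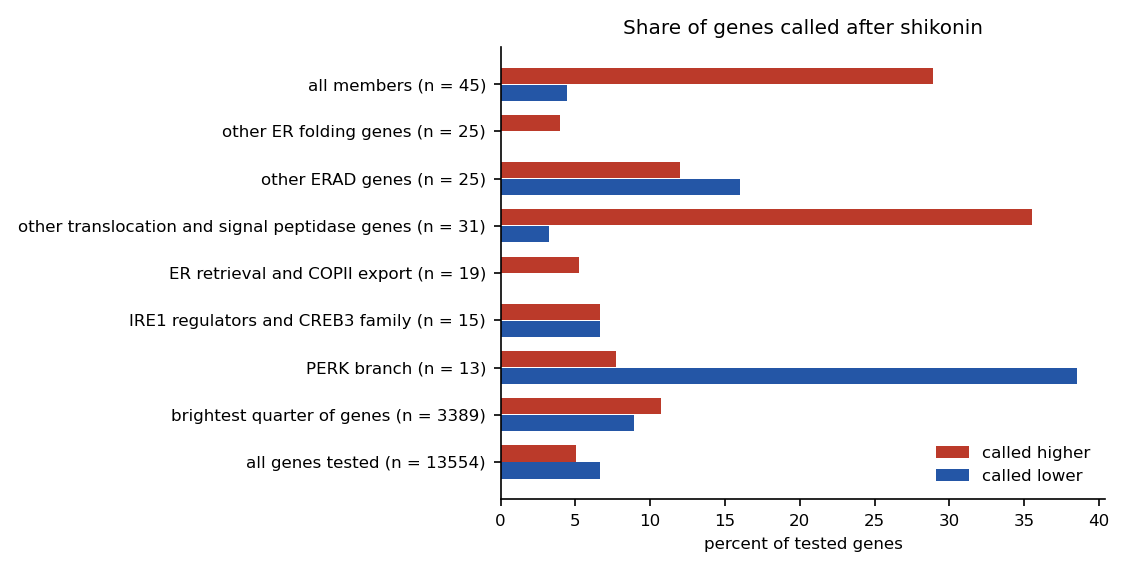
Percent of tested genes called higher (red) and lower (blue) after shikonin among the 45 members, the 6 other pathway lists, the brightest 25% of genes and all 13554 genes tested. The members (28.9% higher) and the translocation list (35.5% higher) stand beside 5.05% over all genes and 10.7% in the brightest 25%, and the PERK list has 38.5% lower.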

How the data were processed

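Total RNA of 2 DMSO and 2 shikonin samples was amplified from the 3' end and hybridized to Affymetrix U133 Plus 2.0 arrays (per the labels' protocols). The authors deposited 1 linear intensity per probe set and array; which software summarised the probes is not given in the sources used, and the scaling was read from the values (the trimmed mean leaves out 2% at either end). The values hold no counts, so the number of arrays limits the precision. All columns of sample values were used.

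Probe sets were named through the platform annotation: of 54675, 41097 had 1 symbol, 1801 several and 11777 none, and 41043 matched RefSeq by gene identifier. Intensities were taken as log2(signal + 9.94), the 20th percentile, which understates changes of dim genes. The 62 controls and the dimmest 40% of probe sets were left out, which kept 32768 with mean signals from 31.6. Differences were tested two-sided in R 4.3.3 with limma 3.58.1 (lmFit and a trended eBayes, 2 residual and 7.1 prior degrees of freedom), and p-values were adjusted by Benjamini-Hochberg over the probe sets kept. The script was tested on simulated data. Motifs were searched and figures drawn with Python 3.11.15, pandas 2.3.3 and matplotlib 3.10.9. Protein sequences were not analysed here.

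The members and lists were chosen with earlier results of these data known. Every member was named, in full where it passed the test, and for each other list up to 4 called genes with the smallest p, plus EIF2AK3, ATF4 and DDIT3; ERLIN2, UFD1, UBXN8, PPP1R15A, EIF2S1 and the genes outside the members with ERSE letters were named after their values were seen. Alternatives were other pseudocounts (1, and 36 at the 40th percentile), other filters (0 or 60% left out), quantile normalization, a single variance prior, the replicate number as a block, no _x_at or _s_at probe sets, the mean of a gene's probe sets, and each array left out. The replicate numbers were checked for pairing: the difference of replicate 1 and 2 in DMSO correlated at 0.022 with that in shikonin over 32768 probe sets, so the numbers were not taken as pairs.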

Additional observations from a re-analysis of the deposited data

Results flagged for a closer look

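A signal outside the counts also differed between the groups. A probe set listed for MIR3652 and HSP90B1 together, and therefore not used for either gene, had signals of 8219 and 8586 in DMSO and 10794 and 10592 after shikonin, a log2 difference of 0.35 (limma, adjusted p = 0.00436). Another probe set with the same 2 symbols was at 0.18 and not called (adjusted p = 0.0756). The probe set of HSP90B1 alone was at 0.27.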

How the results depend on the processing

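Of 598 values of single members or probe sets under the alternatives, 508 kept their direction and their side of the threshold, 47 no longer passed, 14 newly passed and 29 changed sign. The 13 members called higher were 8 with no filter on dim probe sets, 8 without _x_at and _s_at probe sets (37 members tested) and 7 to 8 with 1 array left out. The 2 called lower were 4 with the lowest 60% left out and 1 with the mean of a gene's probe sets. Over all genes, 685 higher were 350 with no filter and 303 to 443 with 1 array left out, and 901 lower were 592 to 676. With a single variance prior, limma called 0 members in either direction and 0 of all genes, with a smallest adjusted p of 0.0764, while 14 members had an unadjusted p below 0.05. The members' median of 0.11 was 0.09 after quantile normalization, 0.07 with the mean of a gene's probe sets and 0.09 to 0.15 with 1 array left out. The cause of these moves was not tested.

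The replicate number as a block gave 17 members higher, 5 lower and 1234 of all genes higher. The labels do not say whether the numbers mark pairs. The low correlation of the replicate differences gave no sign of pairing but cannot exclude a shared culture or day.

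Sign changes came from the mean of a gene's probe sets for ATF6 (-0.23), XBP1 (0.00), CALR (-0.03), SEL1L (-0.08), DERL1 (0.06), SEC61B (-0.02), SEC62 (-0.03) and SEC63 (-0.11), from quantile normalization for CALR (-0.01), P4HB (-0.03) and EDEM3 (-0.03), and from leaving out _x_at and _s_at probe sets for DERL1 (0.15), DERL3 (0.15), SEC63 (-0.30), SSR1 (-0.01), SEC23B (-0.04), NGLY1 (0.30) and BAG6 (-0.38). With 1 array left out, ranges crossed 0 for ATF6 (-0.15 to 0.17), SIL1 (-0.08 to 0.36), CALR (-0.26 to 0.31), DNAJB11 (-0.01 to 0.42), SEL1L (-0.01 to 0.12), EDEM2 (-0.01 to 0.14), EDEM3 (-0.01 to 0.09), DERL1 (-0.04 to 0.02), ERLEC1 (-0.09 to 0.00) and the dim XBP1 probe set (-0.04 to 0.80). Of the 15 called members, 8 were called with every array left out in turn, 3 in some of these fits and 4 in none.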
